A study of Mus musculus with 6 samples.

Results

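The genes described here encode the calcium release complex of the sarcoplasmic reticulum and the proteins that hold it at the junction with the surface membrane: Ryr1, Trdn, Jsrp1, Casq1, Casq2, Hrc, Srl, Jph1 and Jph2. They are 9 of the 22180 genes measured, chosen by name, and each is represented by the probe set (a group of array probes summarised to 1 value) that was brightest on average across the 6 arrays, out of those annotated with 1 gene symbol. All 9 were on the array. The study transfected the mouse myoblast line C2C12, obtained from ATCC, and hybridised total RNA to Affymetrix arrays. There were 3 arrays of cells given a pool of siRNAs against huntingtin (Htt), which the sample labels call HTT KO, and 3 of cells given scramble siRNA as the control. Both groups were C2C12 cells in standard medium transfected with Dharmacon siRNA, with no genetic change stated for either. The labels do not say whether the replicates were separate cultures, so p-values measure only how much these samples varied, and that variation may be technical. Neither the interval between transfection and harvest nor the stage of differentiation is stated in the labels. The study's title places the comparison within the question of whether huntingtin acts on muscle differentiation.

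In skeletal muscle the sarcoplasmic reticulum stores calcium, and depolarisation of the surface membrane opens the ryanodine receptor so that calcium enters the cytoplasm and starts contraction. Triadin links the receptor to calsequestrin, the calcium-binding protein that fills the reticulum's terminal sacs, and junctophilins tether those sacs to the surface membrane. Proliferating myoblasts make little of this apparatus, which is built up as they differentiate and fuse into myotubes.

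After Htt siRNA all 9 genes had positive log2 fold changes, as had 12919 of all 22180 genes. In 8 of the 9 every Htt siRNA array lay above every scramble array. Jph1 was the exception. Such a lack of overlap was seen upwards in 10.1% of all genes and downwards in 5.91%, and downwards in 0 of the 9. The count of 8 was 7 after centring the arrays on their medians (without Casq1), 6 after repeated quantile normalization (without Casq1 and Hrc) and 7 with the probe sets of a gene averaged (without Ryr1). The largest difference was that of Trdn, 2.78-fold, followed by Casq2 at 1.88-fold, Ryr1 at 1.67-fold and Jph2 at 1.63-fold. None of the 9 passed limma's threshold of 0.05 after adjustment over all 22180 genes, where the share of all genes called was 0.0%. Htt, the siRNA target, did not pass either (adjusted p = 0.0559 in limma), and no gene had a smaller adjusted p. At an unadjusted p under 0.05, limma counted 7 of the 9 as higher (Ryr1, Trdn, Casq2, Jph2, Jsrp1, Hrc and Srl) and 0 as lower, against 5.72% of all genes higher and 5.14% lower. The median log2 fold change was 0.60 over the 9 genes and 0.03 over all genes. These genes were chosen with earlier results of the same arrays known, so the counts describe them and are not an independent test.

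Levels are the authors' deposited log2 values made with RMA, a method that corrects background, brings the arrays to a common distribution and compresses weak signals towards the background. A fold computed from a weak signal can therefore be too small. Of the 9 genes, 7 had a mean over the 6 arrays above the median gene mean of 2.95, and Casq1 and Hrc did not. No gene is called absent, since the values come without detection calls. In RNA from whole cultures, more differentiating cells and more RNA per cell cannot be told apart.

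**Figure D1:**
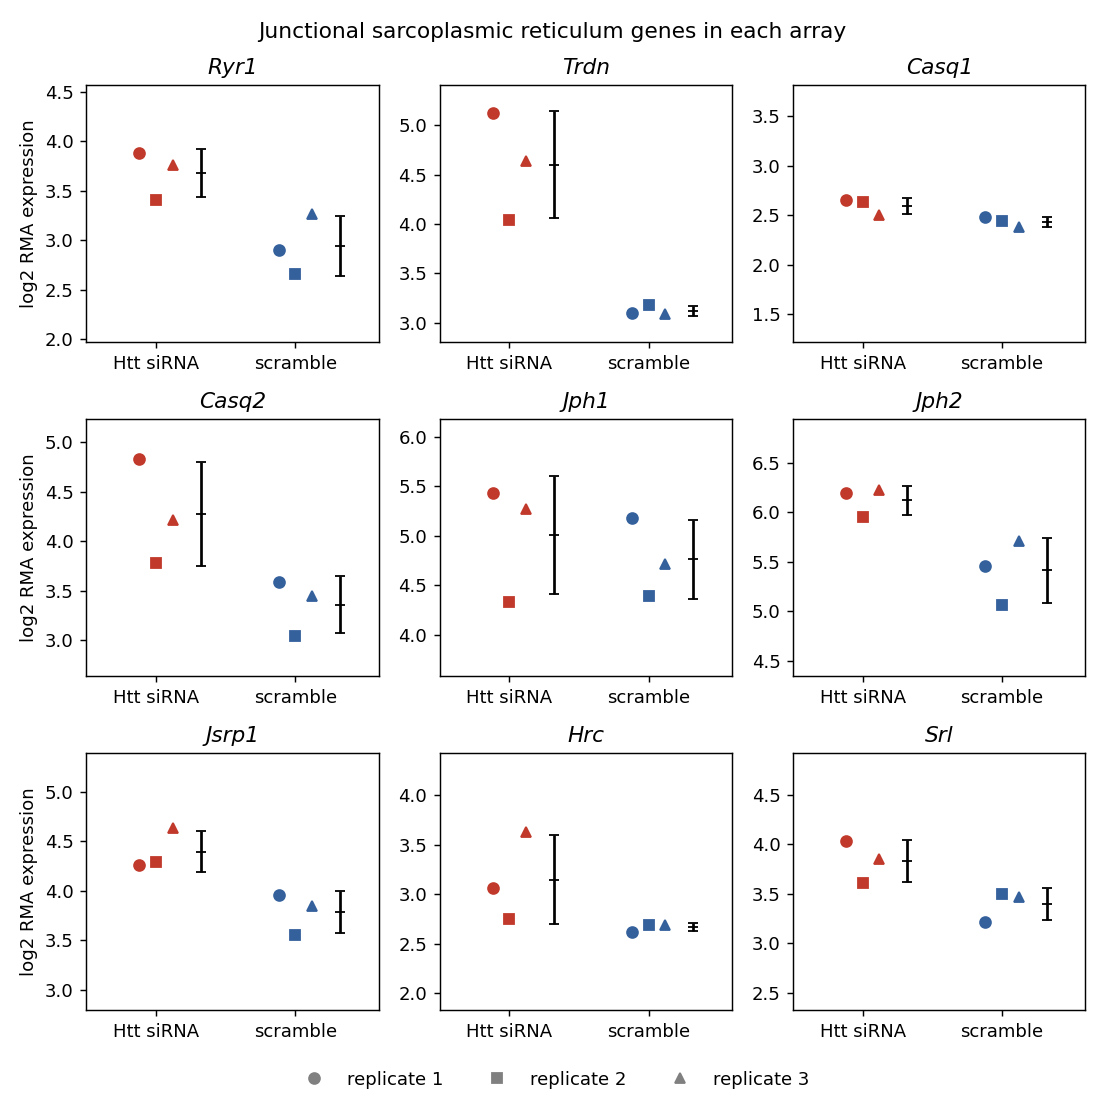
Log2 RMA expression of each of the 9 genes in the 3 Htt siRNA arrays (red, left) and the 3 scramble arrays (blue, right); symbols mark the replicate number, black bars give the mean and SD (n = 3), and all panels span the same number of log2 units. In 8 panels the red points all lie above the blue ones, with the widest gap for Trdn (0.86), while the Jph1 points overlap.

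The sequences that stand upstream of these genes are shown for 4 that differ in their values: Ryr1, Casq2 and Jph2, which were among the 4 with the largest differences, and Casq1, with the smallest. They run 5′ to 3′ from 250 bases before to 50 bases after the gene start, come from RefSeq (GRCm38.p6), and carry in capitals each E-box, the motif CANNTG bound by MYOD1, myogenin and their relatives.
Ryr1 (chr7:29125102-29125401, minus strand): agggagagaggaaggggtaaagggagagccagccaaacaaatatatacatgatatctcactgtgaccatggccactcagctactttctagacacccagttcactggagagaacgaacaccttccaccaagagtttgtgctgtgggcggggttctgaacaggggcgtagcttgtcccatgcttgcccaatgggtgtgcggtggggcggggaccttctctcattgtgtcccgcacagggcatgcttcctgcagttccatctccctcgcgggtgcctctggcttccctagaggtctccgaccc
Casq2 (chr3:102086165-102086464, plus strand): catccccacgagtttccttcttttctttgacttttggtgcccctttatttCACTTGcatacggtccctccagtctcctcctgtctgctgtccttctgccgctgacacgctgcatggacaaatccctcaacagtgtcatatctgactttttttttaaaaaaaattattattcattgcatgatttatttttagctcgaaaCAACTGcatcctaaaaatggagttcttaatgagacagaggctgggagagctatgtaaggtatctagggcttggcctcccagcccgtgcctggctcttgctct
Jph2 (chr2:163397944-163398243, minus strand): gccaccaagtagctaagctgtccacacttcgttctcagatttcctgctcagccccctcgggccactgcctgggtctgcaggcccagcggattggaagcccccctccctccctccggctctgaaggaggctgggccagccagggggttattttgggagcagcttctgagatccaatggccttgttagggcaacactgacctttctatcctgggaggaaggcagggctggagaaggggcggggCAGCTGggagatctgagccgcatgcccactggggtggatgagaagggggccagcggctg
Casq1 (chr1:172219846-172220145, minus strand): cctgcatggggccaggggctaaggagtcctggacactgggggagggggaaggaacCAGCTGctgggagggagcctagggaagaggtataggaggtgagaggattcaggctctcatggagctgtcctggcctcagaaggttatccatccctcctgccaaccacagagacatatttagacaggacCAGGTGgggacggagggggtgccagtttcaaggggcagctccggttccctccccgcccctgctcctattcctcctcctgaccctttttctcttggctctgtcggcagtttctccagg

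The RefSeq table matched 5 of the 9 genes, with 6 promoter windows (Jph2 has 2 overlapping ones). The E-box reads the same on both strands by its fixed letters, and it was present for Casq1, Casq2, Jph2 and Hrc but in 0 places of the Ryr1 window. Of all 32851 promoter windows of the same length, 72.3% held one. The particular E-box CAGCTG, a case of CANNTG, was present for Casq1, Jph2 and Hrc and in 16.3% of all windows. In the Jph2 window printed here it begins 9 bases before the gene start, in Hrc 22 bases before (chr7:45335019-45335318, plus strand), and in Casq1 195 bases before. CAGGTG or its reverse complement CACCTG was found in Casq1 alone, 67 bases before the start, and in 20.2% of all windows. Casq2 held CACTTG and CAACTG, 200 and 52 bases before the start. The letters CTA and TAG separated by 4 bases of any kind, which cover only part of the MEF2 motif's forms, occurred in 0 of the 6 windows. The same held for CATTCC or its reverse complement GGAATG, the MCAT motif. Of all windows, 3.69% and 14.7% held them. MEF2 forms with other outer letters were not counted, so the MEF2 motif is not called absent. The Casq2 window, for example, holds ttatttttag. Both strands were searched.

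The 2 probe sets of the channel gene gave different results. Ryr1, the calcium release channel of skeletal muscle, stood at 3.88, 3.41 and 3.76 on the log2 scale in the Htt siRNA arrays on the brighter one, 17488608, against 2.90, 2.66 and 3.27 in the scramble arrays. The groups did not overlap, but the lowest Htt siRNA array was only 0.14 above the highest scramble array. The log2 fold change was 0.74 ± 0.18 (SE, n = 3 each), with a 95% confidence interval of 0.32 to 1.16 and an adjusted p of 0.303 in limma. A second, dimmer Ryr1 probe set, 17476071, had values of 2.35, 2.24 and 2.72 in Htt siRNA arrays, against 2.37, 2.32 and 2.48 in scramble arrays. On that probe set the groups overlapped, and the log2 difference was 0.05 ± 0.13 (limma SE, n = 3 each). The difference of Ryr1 thus rests on the brighter probe set. With both averaged the log2 fold change was 0.39 and the groups overlapped.

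Of the proteins that anchor the channel, triadin differed most. Trdn had log2 levels of 5.12, 4.04 and 4.64 with Htt siRNA, against 3.10, 3.18 and 3.09 with scramble. The 3 scramble arrays were nearly equal (SD 0.05), while the Htt siRNA arrays spread more widely (SD 0.54), with replicate 1 highest and replicate 2 lowest. The log2 fold change of Trdn was 1.48, with a 95% confidence interval of 0.92 to 2.03 and an adjusted p of 0.169 in limma. Trdn was the only 1 of the 9 genes with a fold of at least 2, which 0.144% of all genes reached upwards.

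Jsrp1 encodes the junctional protein JP-45, which binds both calsequestrin and the voltage-sensing calcium channel of the surface membrane. Its log2 levels were 4.26, 4.29 and 4.63 with Htt siRNA and 3.96, 3.55 and 3.85 with scramble. Here the spread was the same in both groups (SD 0.21 each), and they were separated by 0.30. The log2 fold change was 0.60 ± 0.14 (SE, n = 3 each; adjusted p = 0.300 in limma).

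Calsequestrin is encoded by Casq1 and Casq2. Casq2, the form of heart and slow muscle fibres, stood at 4.83, 3.78 and 4.21 with Htt siRNA and at 3.59, 3.04 and 3.45 with scramble. The groups were separated by 0.18, and the log2 fold change was 0.91 ± 0.26 (SE, n = 3 each; adjusted p = 0.359 in limma). Casq1, the form of fast muscle fibres, stood at 2.65, 2.63 and 2.50 with Htt siRNA and at 2.48, 2.44 and 2.38 with scramble. The Casq1 groups were separated by 0.02 only, at a level where RMA compresses differences, and its log2 fold change was 0.16 with a 95% confidence interval of -0.04 to 0.36. At that level the size of the Casq1 difference cannot be set against that of Casq2.

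Hrc and Srl encode further calcium-binding proteins of the reticulum's lumen. Hrc, the histidine-rich calcium-binding protein that attaches to triadin, had log2 levels of 3.06, 2.75 and 3.63 with Htt siRNA and 2.62, 2.69 and 2.69 with scramble. One array carried most of that difference: replicate 3 was well above the other Htt siRNA arrays, and without it the log2 fold change was 0.23 in place of 0.48. Srl, sarcalumenin, stood at 4.03, 3.61 and 3.85 with Htt siRNA and at 3.21, 3.50 and 3.47 with scramble. The Srl groups were separated by 0.11, with a log2 fold change of 0.43 ± 0.13 (SE, n = 3 each). The adjusted p in limma was 0.452 for Hrc and 0.382 for Srl.

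Of the junctophilins, Jph2 had separate groups and Jph1 did not. Jph2, the form shared by heart and skeletal muscle, had log2 levels of 6.19, 5.95 and 6.22 after Htt siRNA and 5.46, 5.06 and 5.71 after scramble. Its groups were separated by 0.24 and its log2 fold change was 0.71 ± 0.17 (SE, n = 3 each; adjusted p = 0.300 in limma). Jph1, the skeletal muscle form, had log2 levels of 5.43, 4.33 and 5.27 with Htt siRNA and 5.18, 4.39 and 4.72 with scramble. Htt siRNA replicate 2 was the lowest of all 6 arrays and scramble replicate 1 the third highest, so the Jph1 groups overlapped. The log2 fold change of Jph1 was 0.25, with a 95% confidence interval of -0.47 to 0.96 (adjusted p = 0.804 in limma), and it lay between 0.04 and 0.59 when single arrays were left out. The difference of the fold changes, Jph2 minus Jph1, was 0.46 on the log2 scale with overlapping groups (exact two-sided permutation p = 0.3, n = 3 each, where the smallest possible is 0.1).

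The difference of Trdn was also set against that of each other gene. The within-array difference of Trdn to each of the other 8 genes was larger in every Htt siRNA array than in every scramble array for 7 of them, Jph2 being the exception. The differences of the log2 fold changes ran from 0.57 (Trdn minus Casq2) to 1.32 (Trdn minus Casq1, which is dim). Against Ryr1 the within-array difference was 1.24, 0.62 and 0.88 with Htt siRNA and 0.21, 0.52 and -0.18 with scramble. Trdn was singled out after its values were seen, so these values are a description.

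**Figure D2:**
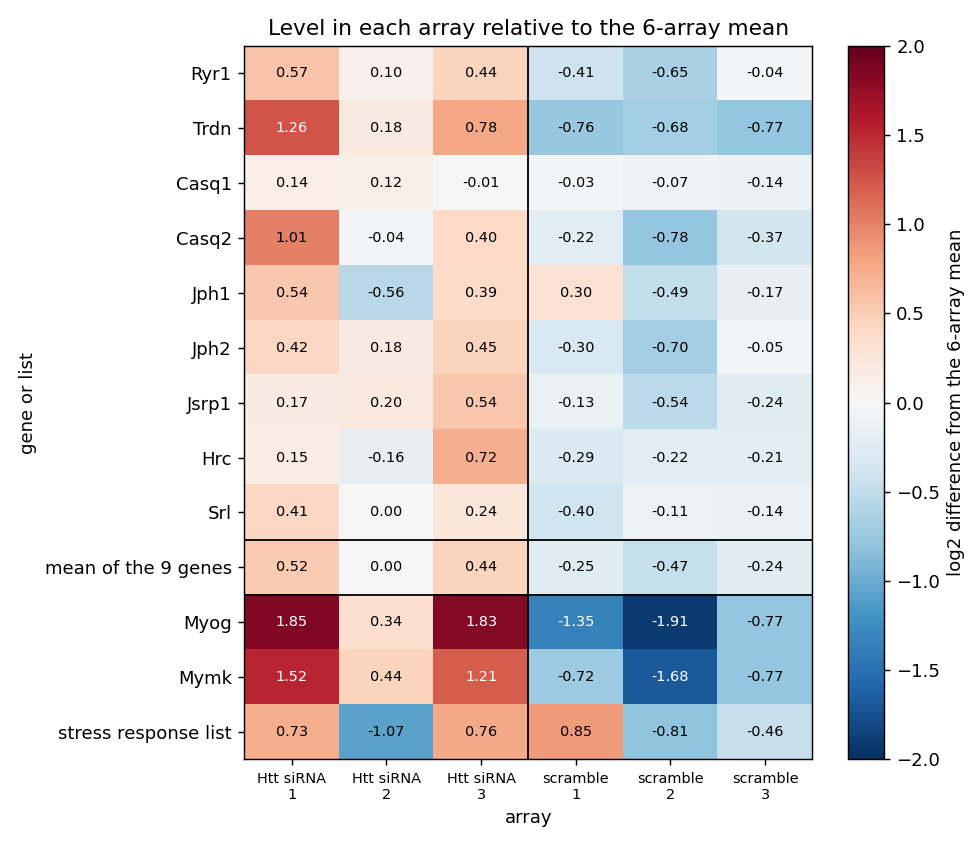
Log2 difference of each gene from its own mean over the 6 arrays, for the 9 genes, their mean, the muscle regulators Myog and Mymk, and the mean of 25 stress response genes; columns are the 3 Htt siRNA arrays and then the 3 scramble arrays. The mean of the 9 genes is 0.52, 0.00 and 0.44 in the Htt siRNA arrays, against -0.25, -0.47 and -0.24 in the scramble arrays.

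The 3 Htt siRNA arrays were unequal, and most of the genes shared that inequality. Within the Htt siRNA group, replicate 2 held the lowest value of 7 of the 9 genes, replicate 1 the highest of 6 and replicate 3 the highest of 3. Within the scramble group, replicate 2 held the lowest value of 5 of the 9. Relative to their 6-array means, the 9 genes averaged 0.52, 0.00 and 0.44 in the Htt siRNA arrays and -0.25, -0.47 and -0.24 in the scramble arrays. Myogenin (Myog), the transcription factor that starts terminal myoblast differentiation, showed 1.85, 0.34 and 1.83 against -1.35, -1.91 and -0.77 on the same scale. Htt itself was low by a like amount in all 3 Htt siRNA arrays (-0.59, -0.62 and -0.44, against 0.50, 0.51 and 0.64 in scramble arrays), with replicate 2 the lowest of them.

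Genes of the endoplasmic reticulum and amino acid stress responses did not split the arrays by group. The mean of 25 such genes, relative to its 6-array mean, was 0.73, -1.07 and 0.76 in Htt siRNA arrays and 0.85, -0.81 and -0.46 in scramble arrays. Within each group replicate 2 had the lowest stress level, and it was also lowest there for the mean of the release complex genes. Of the 25 genes 22 had positive log2 fold changes (over all genes, 12919 of 22180), with a median of 0.26. Limma gave an unadjusted p under 0.05 for 0 of them, against 5.72% of all genes higher and 5.14% lower. The largest single difference ran the other way, that of the cystine transporter gene Slc7a11 (-1.27 ± 1.00, log2 with SE). The 3 arrays with the highest Jph1 were the 3 with the highest stress level. The highest stress level of the 6 arrays was that of scramble replicate 1. With the stress level as a covariate in limma, the log2 fold change was 0.10 for Jph1 and 1.40 for Trdn, and Trdn passed the threshold (adjusted p = 0.0370), as did 0.126% of all genes upwards. The log2 fold changes of the other 7 genes lay between 0.16 and 0.81 in that fit.

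The count of genes past the threshold rested on which arrays were used. Without Htt siRNA replicate 2, limma called 2 of the 9 genes, Trdn (1.76 ± 0.15, adjusted p = 0.00778) and Casq2 (1.16 ± 0.22, adjusted p = 0.0460), while 0.528% of all genes were called upwards. Leaving out any of the other 5 arrays gave 0 calls among the 9, and 0.0% of all genes were called upwards in each of those fits. Without Htt siRNA replicate 1 the log2 fold change of Trdn was 1.21 and that of Casq2 was 0.63. All 9 log2 fold changes were positive in every one of these 6 fits.

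**Figure D3:**
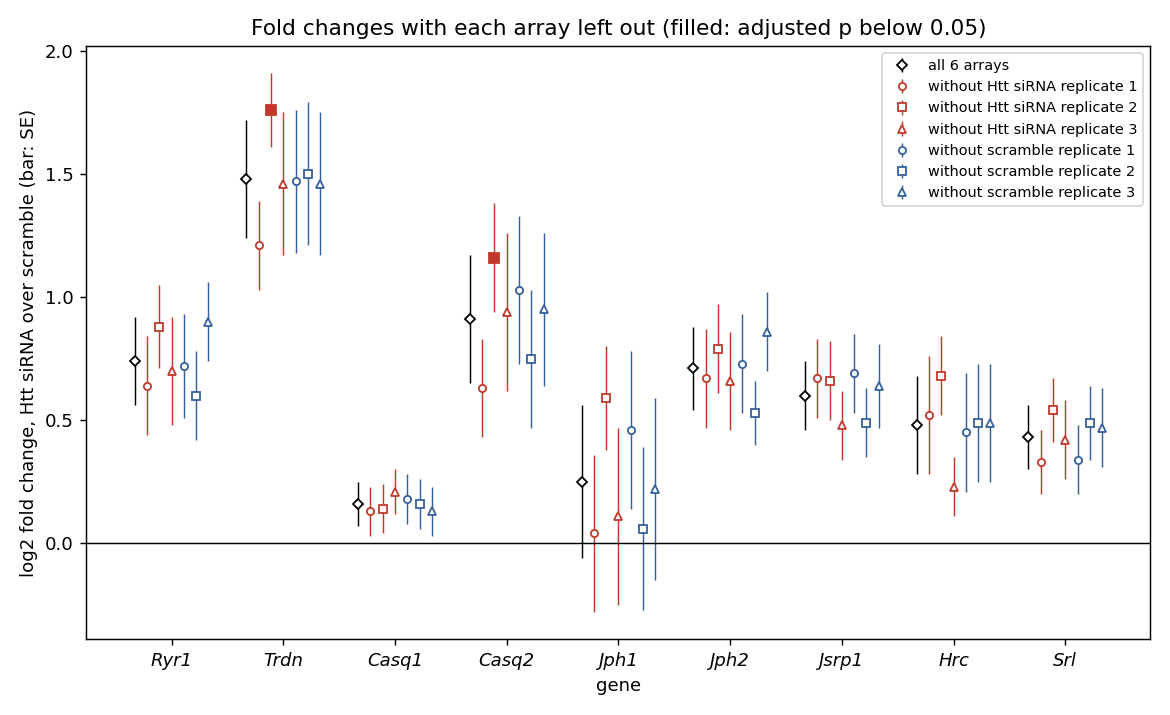
Log2 fold change of Htt siRNA over scramble for each gene with all 6 arrays (black) and with each Htt siRNA array (red) or scramble array (blue) left out; bars give limma's SE and filled symbols an adjusted p below 0.05. The 2 filled symbols are Trdn (1.76) and Casq2 (1.16) without Htt siRNA replicate 2.

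Other genes of excitation-contraction coupling and calcium handling were compared in lists also chosen with earlier results known, and 0 of them passed limma's threshold over all genes. At an unadjusted p under 0.05 in limma, 5.72% of all genes were higher and 5.14% lower. Of 13 measured relatives and partners of the ryanodine receptor, 3 reached that level, all higher after Htt siRNA, and the median log2 fold change was 0.06. These were Tmem38a (0.42 ± 0.13) and Tmem38b (0.56 ± 0.22), the cation channels that balance charge as calcium leaves the reticulum, and the channel relative Ryr3 (0.22 ± 0.09), all log2 with SE. Ryr3 and the heart channel Ryr2 were dim: Ryr2 stood at 2.07, 2.36 and 2.23 with Htt siRNA and at 2.18, 2.12 and 2.18 with scramble. The calmodulin genes of that list were not analysed here.

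At the surface membrane, 3 of 12 voltage sensor and T-tubule genes had an unadjusted p under 0.05 in limma, all higher. Over all genes 5.72% were higher and 5.14% lower at that level. The median log2 fold change of the list was 0.16. Cacnb1, the beta subunit of the voltage-sensing calcium channel, was at 5.85, 4.93 and 5.78 with Htt siRNA and at 4.93, 4.67 and 4.75 with scramble. Its groups were separated by 0.01, and the log2 fold change was 0.74 ± 0.23. The gamma subunit Cacng1 (0.50 ± 0.12) and Bin1, which shapes T-tubules (0.28 ± 0.10), also had non-overlapping groups. Cacna1s, the channel's pore and voltage sensor, had a log2 fold change of 0.13 ± 0.08 at a mean level of 2.70, below the median gene mean. Its groups were separated by 0.03. Sypl2 ran the other way, with every Htt siRNA array below every scramble array (-0.18 ± 0.08, at a mean level of 2.55). Of the 12 genes, 4 had non-overlapping groups upwards and 1 downwards, against 10.1% and 5.91% of all genes.

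Among 7 measured genes of calcium uptake, 2 had an unadjusted p under 0.05, both higher, with a list median of 0.34. Mrln encodes myoregulin, a micropeptide that inhibits the calcium pump of the reticulum, and it stood at 4.92, 4.93 and 4.74 with Htt siRNA, against 3.51, 3.17 and 4.01 with scramble. The Mrln groups did not overlap, and unlike Trdn its Htt siRNA arrays were close to each other; the log2 fold change was 1.30 ± 0.20 (SE, n = 3 each; adjusted p = 0.169 in limma). The fast muscle pump Atp2a1 had a log2 fold change of 0.44 ± 0.18. Of 15 general calcium genes of the endoplasmic reticulum, such as Calr and the inositol trisphosphate receptor genes Itpr2 and Itpr3, 0 had an unadjusted p under 0.05 in limma. Over all genes 5.72% were higher and 5.14% lower at that level. Non-overlapping groups were seen in 0 of the 15, against 10.1% of all genes upwards and 5.91% downwards. With only 15 genes, such counts of 0 are not read as a difference from all genes. The median log2 fold change of the 15 was 0.05, and the largest difference in size was that of the store sensor Stim1 (-0.22 ± 0.10).

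**Figure D4:**
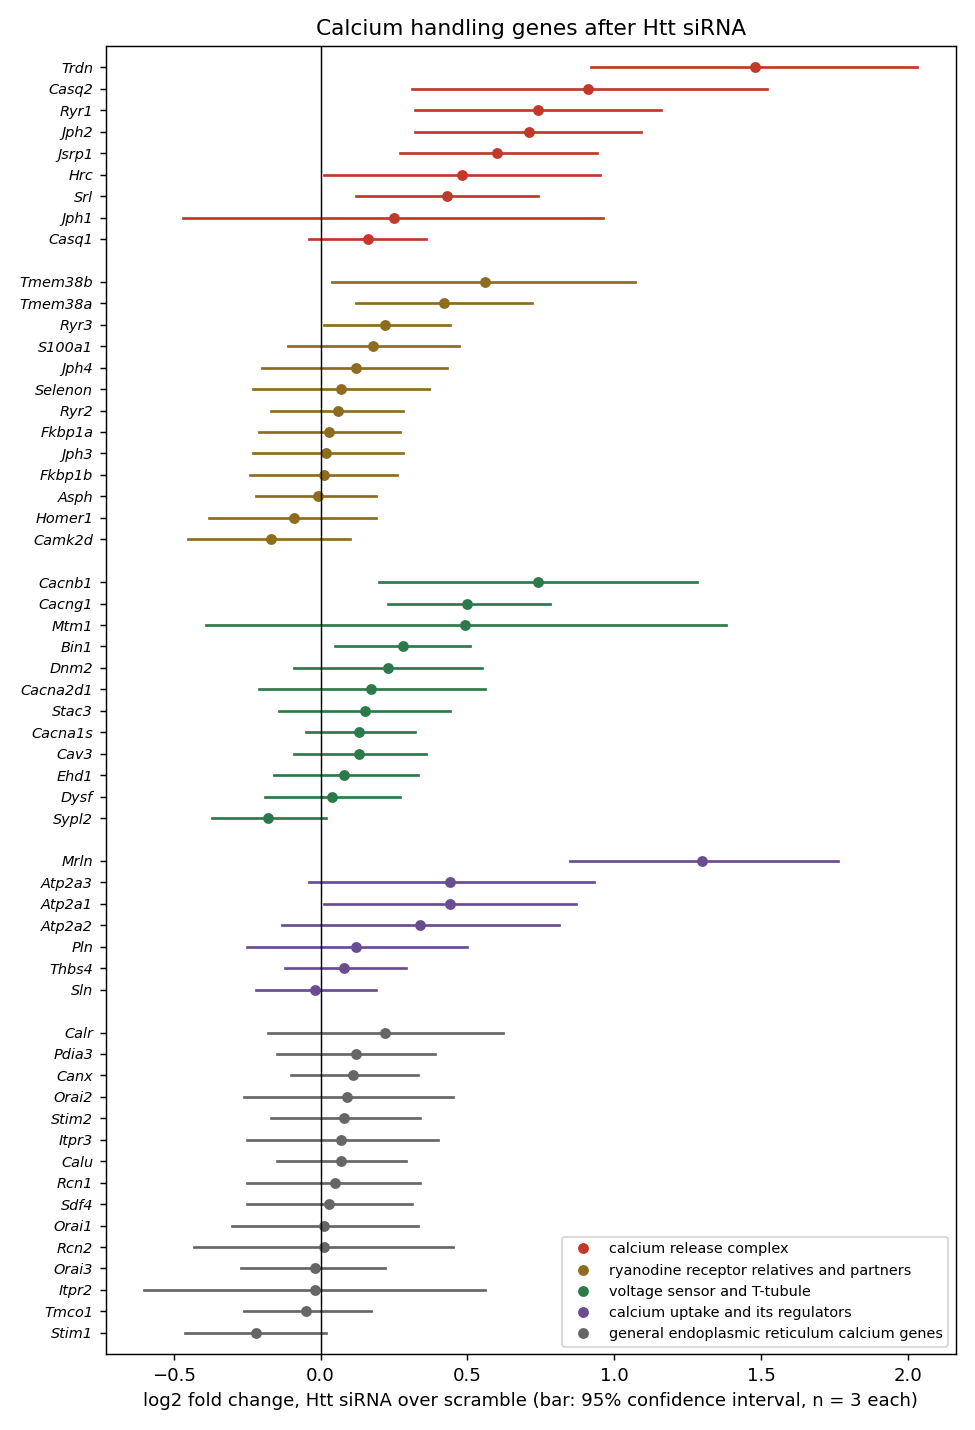
Log2 fold change of Htt siRNA over scramble with its 95% confidence interval (limma, n = 3 each) for the 9 genes of the release complex (red) and 4 further lists of calcium handling genes. The intervals of 7 red genes lie above 0, and those of the 15 general endoplasmic reticulum genes (grey) all include 0.

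The genes whose values most resembled those of the complex were chosen by Pearson correlation over the 6 arrays, among 1091 other genes with a range of at least 1 log2 unit. The 6 arrays share their group structure, so such correlations are a description. Closest to the mean of the 9 genes were Klhl41, a kelch protein of the sarcomere (r = 0.999), the fast troponin gene Tnnt3 (0.996), skeletal actin Acta1 (0.992), the fast myosin light chain gene Mylpf (0.991) and the membrane protein gene Tmem47 (0.990). Closest to Trdn were Neb (0.987), Tnnt3 (0.977), Hjv (0.977), Actc1 (0.975) and Acta1 (0.969), of which all but the iron regulator Hjv encode contractile filament proteins. Closest to Ryr1 were the transcription factor gene Sox8 (0.988), Rapsn (0.987), whose product clusters acetylcholine receptors, Ccdc8 (0.986), the matrix protein gene Prelp (0.986) and the kinase gene Dapk2 (0.983). Klhl41 had a mean log2 level of 3.87 with Htt siRNA against 2.98 with scramble, and Sox8 of 4.89 against 3.65.

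At an unadjusted p under 0.05 in limma, 5.72% of all genes were higher and 5.14% lower, which is the background for each count below. Among 9 genes of myogenic regulation and fusion, 5 reached that level, all higher, and the list median was 0.42. By size these were Myog (2.68 ± 0.44), the fusion protein gene Mymk (2.11 ± 0.33), Myod1 (0.66 ± 0.27), the second fusion gene Mymx (0.47 ± 0.16) and Mef2a (0.42 ± 0.13). Of 8 skeletal myoblast markers, 3 were higher at that level (Ncam1, 0.49 ± 0.12, Cdh15, 0.41 ± 0.17, and Myod1). The desmin gene Des stood at 10.25 to 10.35 with Htt siRNA and 9.92 to 10.24 with scramble, while Pax7 was near the median gene mean (2.94 to 3.57 over all arrays). Since Casq2 and Jph2 are also heart genes, 9 cardiac markers were examined. Their summed level, as a mean, ranged from 3.47 to 3.65 with Htt siRNA and from 3.35 to 3.50 with scramble; 2 of 9, Gata4 (0.27 ± 0.11) and Myl4 (0.42 ± 0.18), had an unadjusted p under 0.05 in limma. Of the 9 cardiac markers 7 had positive and 2 negative log2 fold changes, with a median of 0.11. The negative ones were Myh6 (2.67 to 2.80 against 2.66 to 3.03) and Tnni3 (3.10 to 3.28 against 3.08 to 3.37), which overlapped between the groups. The remaining positive ones overlapped too: Nkx2-5 (0.25 ± 0.20), Myl7 (0.21 ± 0.20), Nppa (0.11 ± 0.14), Ryr2 (0.06 ± 0.10) and Nppb (0.02 ± 0.18). Of smooth muscle markers 3 of 6 were higher at that unadjusted level (Acta2, Tagln and Cnn1, with log2 fold changes of 0.42, 0.61 and 0.51), and their mean level was 5.96 to 6.09 against 5.70 to 5.81. Fibroblast markers averaged 3.43 to 3.46 against 3.15 to 3.26, with 1 of 6 higher (Dcn, 1.69) and 1 lower (Pdgfra, -0.26). Their median log2 fold change was only 0.03, and the difference in their mean came largely from Dcn. The 5 endothelial markers averaged 2.26 to 2.31 against 2.15 to 2.22 with 0 at that level, of macrophage markers 1 of 5 was lower (Cd68, -0.39; 2.61 to 2.69 against 2.65 to 2.70), and of neuronal markers 1 of 6 was higher (Map2, 0.31; 4.09 to 4.37 against 4.11 to 4.15). In lists of 5 or 6 genes, counts of 0 or 1 are not read as a difference from all genes. The part of these marker differences in the results above was not tested.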

How the data were processed

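Total RNA of 6 C2C12 samples was measured on Affymetrix arrays. Expression was deposited by the authors as log2 values in 1 table, made with RMA and the affy package per the submitters' processing notes, for 41345 probe sets. Neither versions nor a genome build for the array are given in those notes. The platform annotation gave 1 symbol to 23521 probe sets and several to 1814. Across probe sets the arrays correlated pairwise at r of 0.981 to 0.991, 0 pairs were identical, and the table had no gaps. The number of arrays limits the precision.

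The targeted gene was checked first, and Htt averaged 4.54 ± 0.10 after Htt siRNA against 5.64 ± 0.08 after scramble on the log2 scale (SD, n = 3 each). Limma 3.58.1 in R 4.3.3 (lmFit, eBayes, group as the only term) was fitted to 22180 genes without a filter on dim genes, two-sided, with Benjamini-Hochberg adjustment over all of them and a threshold of 0.05. The working of the fit was checked on simulated data with equal, independent noise in every gene and large shifts. That check says nothing about power in these arrays. Single values were compared by exact permutation tests (SciPy 1.17.1). Figures used matplotlib 3.10.9, and tables pandas 2.3.3 in Python 3.11.15. Named were the 9 genes with all their probe sets, Htt, from each other list up to 4 genes with the smallest unadjusted p under 0.05 or else the largest absolute difference, and per profile the 5 most correlated genes. Des, Pax7, Cacna1s, Sypl2, Ryr2, Myh6, Tnni3, Nkx2-5, Myl7, Nppa and Nppb were named outside that rule, after their values were seen. So were Myod1 as a regulator, Calr, Itpr2 and Itpr3. The members and lists were chosen with earlier results of these data known. The alternatives were 15 settings: each array left out, a replicate block, 2 other scalings, a dim filter, 2 probe set rules, array weights, a trended robust prior and a stress covariate. Background correction could not be varied, since only summarised values were used.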

Additional observations from a re-analysis of the deposited data

How the results depend on the processing

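All 9 log2 fold changes stayed positive under each of the 15 alternatives in which the gene was tested (Casq1 and Hrc drop out above the median mean). The number of the 9 genes past limma's adjusted threshold was 0 with all arrays. It ranged from 0 to 2 when single arrays were left out (0.0% to 0.528% of all genes upwards). With the stress covariate it was 1, Trdn (0.126% of all genes upwards). The number higher at an unadjusted p under 0.05 ranged from 6 to 8 with single arrays left out (3.23% to 7.8% of all genes), and the number with non-overlapping groups from 8 to 9 (13.7% to 19.1% of all genes). Non-overlapping groups numbered 7 with centred arrays (7.02% of all genes), 6 with repeated quantile normalization (9.75%), 7 with averaged probe sets (10.0%) and 6 of the 7 genes above the median mean (7.13%). Over all alternatives the log2 fold change of Trdn ranged from 1.21 to 1.76 and its adjusted p in limma from 0.00778 to 0.624; for Casq2 the ranges were 0.63 to 1.16 and 0.0446 to 0.709. Of the 122 genes in the other lists, 0 passed with all arrays, 0 to 6 with single arrays left out and 4 with the stress covariate. With the replicate number as a block, limma called 2 of the 9 genes (Trdn, adjusted p = 0.0450, and Casq2, 0.0446) and 3 genes of the other lists, while 0.185% of all genes were called upwards. Deviations of same-numbered arrays from their group means correlated with r of 0.350, 0.364 and 0.006 across genes for replicates 1, 2 and 3, and not every array correlated best with its own number, so the numbers were not taken as pairs. Dim probe sets, here Casq1, Hrc and the second one of Ryr1, limit what can be seen, since RMA compresses differences near the background.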
